A study of Mus musculus with 18 samples.

Results

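The 10 genes of the HoxB cluster (Hoxb1 to Hoxb9 and Hoxb13) were followed in mouse embryonic stem (ES) cells treated with retinoic acid (RA), a hormone-like signal that cells make from vitamin A and sense with nuclear receptors. Members were taken by gene symbol from the array's annotation, among 18194 genes with a probe set of their own. Of the 10 genes, 9 had such a probe set, and 8 were bright enough to be tested among 11388 genes. Hoxb7 reached 100 units on no array and was not tested, and Hoxb8 was read only by a probe set that the annotation also gives to Hoxb7. All 10 genes lie on mouse chromosome 11.

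Hox genes encode homeodomain transcription factors that set the identity of body segments along the head-to-tail axis. In each Hox cluster the genes stand in the order in which embryos switch them on, with the 3' genes active earliest and farthest forward, in the hindbrain, and the 5' genes later and farther back. RA is known to start this sequence from the 3' end, and Cyp26a1 encodes a cytochrome P450 that breaks RA down.

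Each of the 18 arrays held RNA of AB1 ES cells, labelled Cyp26a1-/- or wild type. Each genotype had 3 arrays of cells given 100 nM RA for 8 h, 2 given 100 nM RA for 72 h and 3 untreated at 8 h, all kept in LIF (leukemia inhibitory factor, which maintains mouse ES cells in culture), and 1 array of untreated cells without LIF at 8 h. No untreated group was labelled 72 h, so the effects of RA and of time cannot be told apart at 72 h. Whether the Cyp26a1-/- line is a single clone, and whether replicates came from separate cultures, is not given in the sources used here. A p-value here thus rests on how far these samples scatter, and that scatter may be technical only.

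Signal is the linear intensity of a probe set. The arrays shared a trimmed mean of 500 units, their medians lay between 54.4 and 75.6 units, and values under 50 units were set to 50 before log2 was taken. The Cyp26a1 probe set read 193, 216 and 193 units in Cyp26a1-/- cells after 8 h of RA, against 637, 1695 and 691 units in wild-type cells. At 72 h it read 2873 and 3075 units in Cyp26a1-/- cells and 3403 and 3211 units in wild-type cells. Control arrays read 52.6, 9.81 and 23.3 units in Cyp26a1-/- cells, against 17.5, 84.2 and 71.9 units in wild type. Whether the probe set lies in the deleted part is not given, so it checks no label, and Cyp26a1-/- means here the arrays so labelled. Socs3, a target of the LIF pathway, read 215 units in Cyp26a1-/- and 368 units in wild-type cells on the replicate 1 control arrays, whose labels say that LIF was present. On the arrays whose labels say that it was absent, Socs3 read 4551 units in Cyp26a1-/- and 3800 units in wild-type cells. These 2 pairs go against their labels, so the comparisons with controls were repeated without replicate 1 of both control groups. No call of a member was lost or gained without them, and the lost calls of other genes named here are given beside those genes. The member difference from controls that moved most was that of Hoxb13 in wild type, which was 0.18 at 8 h, against -0.14 with all arrays, and 1.52 at 72 h, against 1.20. In each group 13 of 14 pluripotency genes read at least 100 units on every array, while 8 of 10 fibroblast feeder markers lay under 50 units on all Cyp26a1-/- control arrays and 7 of 10 on all wild-type ones.

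In untreated cells the cluster was dim. No member reached 100 units on any control array, and the highest reading of any member was 72.2 units in Cyp26a1-/- and 97.9 units in wild-type controls. On the arrays labelled without LIF, the highest was 42.5 units in Cyp26a1-/- and 45.3 units in wild-type cells.

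After 8 h of RA, Hoxb4 rose in both genotypes and no other tested member passed the test. Hoxb4 is active in the hindbrain and neck region of embryos and is widely used to expand blood-forming stem cells in culture. It read 196, 196 and 142 units in Cyp26a1-/- cells given RA, against 62.7, 72.2 and 53.0 units in Cyp26a1-/- controls. In wild-type cells it read 116, 206 and 125 units with RA, against 20.3, 61.3 and 22.1 units in controls. All RA arrays lay above all controls of their genotype, and all 6 were above 100 units.

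These readings gave a log2 difference of 1.50 ± 0.23 in Cyp26a1-/- cells (± is the standard error here and below, limma adjusted p = 0.00450) and 1.43 ± 0.23 in wild type (limma adjusted p = 0.00646). The fold was 2.83 in Cyp26a1-/- cells. None is given for wild type, where 2 of the 3 control arrays lay under the floor and setting them to 50 shrinks the difference. A gene was called when its adjusted p, over all genes tested, was under 0.05. Of the 8 tested members, 1 was called higher in each genotype, where the share of all tested genes called higher was 0.861% in Cyp26a1-/- and 0.79% in wild-type cells. Without replicate 1 of both control groups the Hoxb4 difference was 1.51 ± 0.27 in Cyp26a1-/- cells (limma adjusted p = 0.0216) and 1.38 ± 0.27 in wild type (limma adjusted p = 0.0320).

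The call depends on the floor and on which arrays enter the fit. With the floor at 100 units it was lost in both genotypes, at 0.81 in Cyp26a1-/- cells (limma adjusted p = 0.0733) and 0.53 in wild type (limma adjusted p = 0.406). It was also lost in fits of the compared groups alone, where the differences stayed 1.50 in Cyp26a1-/- (limma adjusted p = 0.0520) and 1.43 in wild-type cells (limma adjusted p = 0.192) and fewer arrays set the error. A dimmer probe set of Hoxb4 read 43.1, 80.9 and 66.6 units with RA in Cyp26a1-/- cells, against 8.91, 32.1 and 19.6 units in controls. That probe set read 17.8, 74.2 and 81.6 units with RA in wild-type cells, against 33.3, 18.7 and 63.2 units in controls. Tested among 20246 probe sets, its differences, 0.37 in Cyp26a1-/- cells (limma adjusted p = 0.910) and 0.31 in wild type (limma adjusted p = 1), were not called.

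The promoter stretches of Hoxb4, the gene called at 8 h, and of Hoxb1, the gene at the 3' end that was not, are shown for comparison. Both are the 250 bases before the RefSeq gene start on the plus strand of GRCm38.p6, at chr11:96318017-96318266 for Hoxb4 and chr11:96365508-96365757 for Hoxb1. Capitals mark matches to the motifs named after them.
Hoxb4: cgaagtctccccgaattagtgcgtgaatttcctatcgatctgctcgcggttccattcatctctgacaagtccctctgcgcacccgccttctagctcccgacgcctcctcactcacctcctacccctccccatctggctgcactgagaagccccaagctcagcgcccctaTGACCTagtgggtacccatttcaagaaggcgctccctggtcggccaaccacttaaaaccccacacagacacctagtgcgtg
Hoxb1: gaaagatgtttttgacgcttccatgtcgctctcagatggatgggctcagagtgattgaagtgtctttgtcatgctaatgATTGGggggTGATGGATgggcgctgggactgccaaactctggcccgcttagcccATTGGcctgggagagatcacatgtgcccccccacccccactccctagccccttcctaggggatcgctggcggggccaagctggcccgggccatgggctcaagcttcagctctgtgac

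Both strands of 32851 RefSeq windows, which run from 250 bases before to 50 after a gene start, were searched for the RA receptor hexamer AGGTCA, the variant GGGTCA, the variant AGTTCA and the variant GGTTCA. Direct repeats of any of these with 5 or 2 bases between, the Hox-Pbx site TGATNNAT, the CCAAT box and the TATA box with the letters TATAAA were searched too. The Hoxb4 window held a single hexamer, AGGTCA on the minus strand, whose printed form starts 81 bases before the gene start. A hexamer occurs in 43.7% of all windows, so a match of this kind is common. The Hoxb1 window held no hexamer in these letters. It held a Hox-Pbx match on the plus strand 162 bases before the start, a motif found in 8.85% of windows, and CCAAT on the minus strand at 171 and 117 bases before it, found in 37.4%. Neither window held a repeat with a spacer of 5, found in 0.0974% of windows, or of 2, found in 0.268%. Of the 10 members, 3 had a window in the table, the third being Hoxb8.

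Of the remaining members at 8 h, Hoxb2, a hindbrain segment gene, had the largest differences as computed. It read 59.8, 143 and 66.6 units with RA in Cyp26a1-/- cells, against 31.1, 24.1 and 5.82 units in controls, and 27.5, 182 and 24.2 units with RA in wild type, against 27.2, 8.67 and 25.7 units. Replicate 2 was the high array in both genotypes, and the RA and control arrays overlapped in wild type. The differences of 0.73 ± 0.41 in Cyp26a1-/- (limma adjusted p = 0.721) and 0.62 ± 0.41 in wild-type cells (limma adjusted p = 0.874) were not called. Replicate 2 of wild-type cells with RA was also the highest of its group for Hoxb1, at 89.5 units, and for Cyp26a1, at 1695 units, and its part in these values was not tested.

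Hoxb1, which gives the fourth hindbrain segment its identity, read 7.24, 67.9 and 31.3 units at 8 h with RA in Cyp26a1-/- cells and 29.2, 89.5 and 26.3 units in wild type. It lay at the floor in all controls and was not called, at 0.15 in Cyp26a1-/- cells (limma adjusted p = 0.969) and 0.28 in wild type (limma adjusted p = 0.963). Hoxb3 lay above its controls on every 8 h RA array of Cyp26a1-/- cells, with 58.6, 73.6 and 80.8 units against 20.1, 39.6 and 27.1 units, but was not called (0.49 ± 0.22, limma adjusted p = 0.539). With values under 50 units set to 50, groups that did not overlap, higher with RA, were seen for Hoxb2, Hoxb3 and Hoxb4 in Cyp26a1-/- cells and for Hoxb4 in wild type, where 6.59% of all tested genes in Cyp26a1-/- and 6.13% in wild-type cells had such groups. In the readings before the floor, the groups of Hoxb5 in Cyp26a1-/- cells and of Hoxb1, Hoxb5 and Hoxb6 in wild type did not overlap either, with all their controls and some of their RA arrays under the floor. The share of all tested genes with such groups before the floor was not counted, so nothing is drawn from these. Some gaps were narrow, with 5.45 against 5.11 units for Hoxb5 in Cyp26a1-/- cells and 22.9 against 20.2 units for Hoxb6 in wild type. Computed with the floor, the 8 h differences of Hoxb5, Hoxb6, Hoxb9 and Hoxb13 lay between 0.00 and 0.62 in Cyp26a1-/- cells and between -0.14 and 0.11 in wild type.

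**Figure D1:**
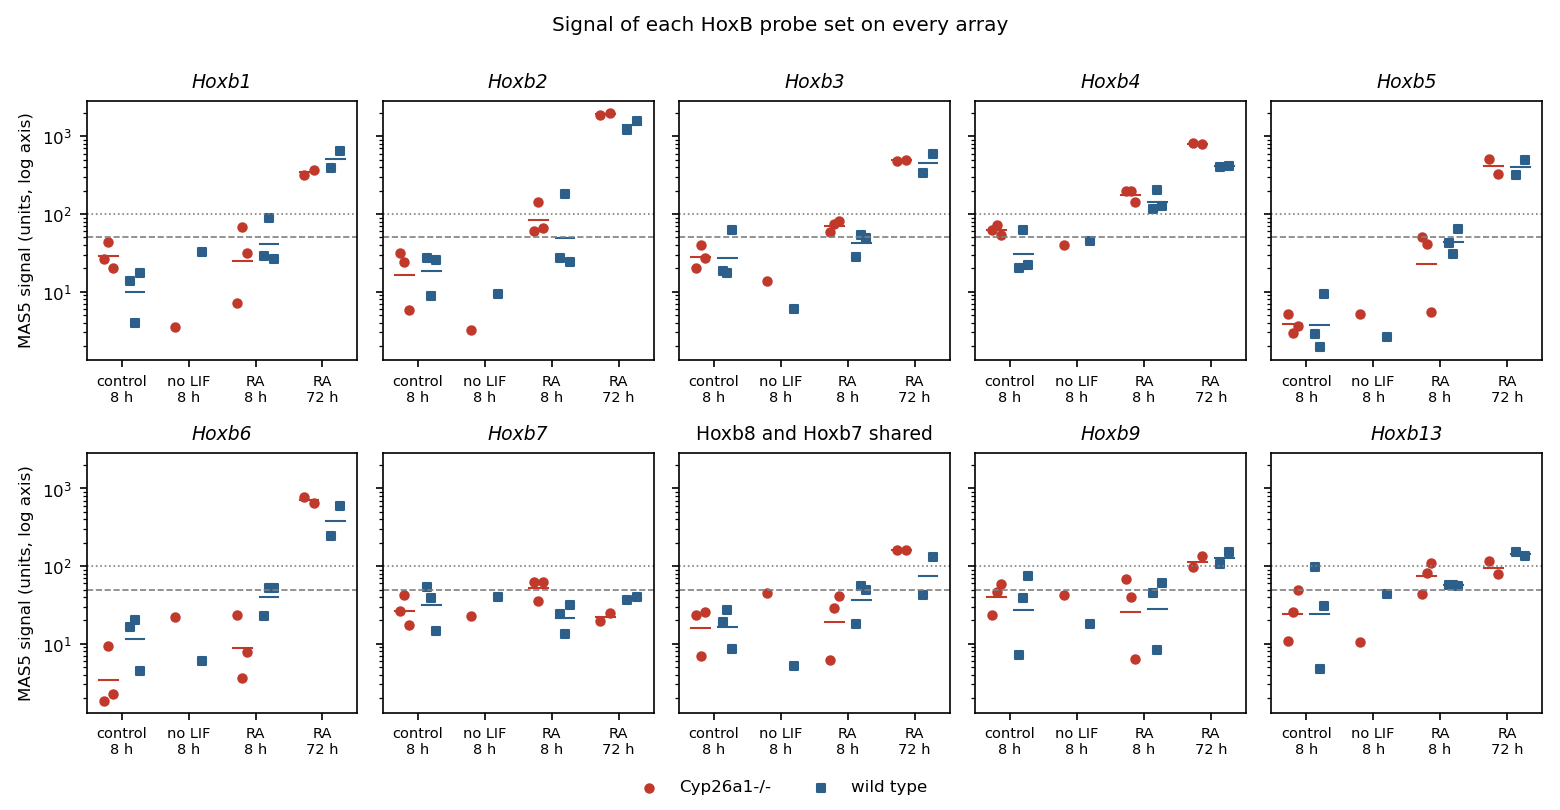
Signal in units (log axis) of the probe set standing for each HoxB gene, and of the probe set shared by Hoxb8 and Hoxb7, on every array by condition and genotype. Horizontal bars are geometric means of replicates, the dashed line is the floor of 50 units and the dotted line is 100 units; Hoxb4 is above 100 units on all 8 h RA arrays, and Hoxb1 to Hoxb6 are so on all 72 h arrays.

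At 72 h with RA, 7 of the 8 tested members were called higher than controls in Cyp26a1-/- cells and 8 of 8 in wild type, where 14.8% of all tested genes in Cyp26a1-/- and 16.1% in wild-type cells were called higher. Most members passed the filter on dim genes only through these bright arrays, so the counts describe the members and do not show that they respond more often than other genes. The groups of all 8 did not overlap in either genotype, where 30.7% of tested genes in Cyp26a1-/- and 30% in wild-type cells were higher without overlap. The median log2 difference of the 8 was 3.16 in Cyp26a1-/- cells and 2.97 in wild type, and that of all tested genes was 0.06 in both. Without replicate 1 of both control groups the counts were 7 in Cyp26a1-/- and 8 in wild-type cells. In that fit 1450 of 11325 tested genes were called higher in Cyp26a1-/- cells and 1616 in wild type. In bulk RNA, more cells that express a gene and more RNA per cell cannot be told apart.

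The 3' genes Hoxb1 to Hoxb4 were all called in both genotypes. Hoxb1 read 320 and 373 units in Cyp26a1-/- cells at 72 h, against 26.6, 43.6 and 19.9 units in controls, a log2 difference of at least 2.79 ± 0.29 (limma adjusted p = 7.30e-06). In wild type it read 393 and 653 units, against 13.7, 3.97 and 17.4 units, a difference of at least 3.34 ± 0.29 (limma adjusted p = 1.23e-06). "At least" marks a difference from a group that lay wholly at the floor. At 72 h the floor also shrinks differences from groups with some arrays under it. This holds for all other 72 h differences from controls given for the 8 genes except that of Hoxb4 in Cyp26a1-/- cells, where no control array lay under the floor. At 8 h the floor can also turn the sign of a difference. Hoxb13 in wild type averaged 56.6 units at 8 h with RA and 44.5 units in controls before the floor, while its floored log2 difference was -0.14.

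Hoxb2 showed the largest differences of the 8 genes as computed. It read 1869.6 and 2023.3 units in Cyp26a1-/- cells at 72 h and 1212.5 and 1583.7 units in wild type, against at most 31.1 units in Cyp26a1-/- and 27.2 units in wild-type controls. The rise was at least 5.28 ± 0.46 in Cyp26a1-/- cells, or at least 38.9-fold (limma adjusted p = 1.44e-06), and at least 4.79 ± 0.46 in wild type, or at least 27.7-fold (limma adjusted p = 3.42e-06). The 8 h arrays, at most 182 units, stood far below these readings.

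Hoxb3, another hindbrain gene, read 486 and 498 units in Cyp26a1-/- cells at 72 h and 340.3 and 590.2 units in wild type. It rose by at least 3.30 ± 0.25 in Cyp26a1-/- cells (limma adjusted p = 3.59e-07) and by 3.06 ± 0.25 in wild type (limma adjusted p = 7.51e-07). Its dimmer probe set moved the same way, with 223 and 240.5 units in Cyp26a1-/- cells and 156 and 161 units in wild type, against at most 28.7 units in Cyp26a1-/- and 23.9 units in wild-type controls. The RefSeq record of Hoxb3 spans Hoxb4, so the order of these neighbours was taken from where each gene ends.

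Hoxb4 read 813 and 797 units in Cyp26a1-/- cells at 72 h and 408 and 416 units in wild type. Replicates lay close together, and the Cyp26a1-/- pair was the higher. Against controls it rose by 3.70 ± 0.26 in Cyp26a1-/- cells, or 13.0-fold (limma adjusted p = 2.14e-07), and by 2.94 ± 0.26 in wild type (limma adjusted p = 1.37e-06). From 8 h to 72 h it gained 2.19 ± 0.26 in Cyp26a1-/- cells (limma adjusted p = 4.15e-05) and 1.52 ± 0.26 in wild type (limma adjusted p = 0.000656). Between these times 7 of 8 members were called higher at 72 h in Cyp26a1-/- cells and 8 of 8 in wild type, where 12.7% of tested genes in Cyp26a1-/- and 14.1% in wild-type cells were; the exception was Hoxb13 in Cyp26a1-/- cells (0.31 ± 0.34, limma adjusted p = 0.587).

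The middle genes rose too. Hoxb5, which acts in neural crest and the nerves of the gut, read 513 and 326 units in Cyp26a1-/- cells at 72 h and 317 and 502 units in wild type, against at most 5.11 units in Cyp26a1-/- and 9.34 units in wild-type controls. Its rise was at least 3.03 ± 0.25 in Cyp26a1-/- (limma adjusted p = 9.07e-07) and at least 3.00 ± 0.25 in wild-type cells (limma adjusted p = 1.01e-06). Hoxb6, a gene of the trunk mesoderm, read 780.0 and 646 units in Cyp26a1-/- cells and 246 and 596 units in wild type, against at most 9.47 units in Cyp26a1-/- and 20.2 units in wild-type controls. It rose by at least 3.83 ± 0.28 in Cyp26a1-/- cells, or at least 14.2-fold (limma adjusted p = 3.59e-07), and by at least 2.94 ± 0.28 in wild type (limma adjusted p = 3.58e-06). The wild-type arrays of Hoxb6 lay far apart, and the higher of them was under both Cyp26a1-/- arrays.

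Between Hoxb6 and Hoxb9 the array reads the cluster poorly. The Hoxb7 probe set showed 19.9 and 25.0 units in Cyp26a1-/- cells at 72 h and 36.9 and 40.3 units in wild type, under the floor like most of its controls. The probe set shared by Hoxb8 and Hoxb7 read 160.6 and 160.4 units in Cyp26a1-/- cells at 72 h, against 23.4, 7.01 and 25.9 units in controls, and 42.2 and 130.5 units in wild type, against 19.0, 27.1 and 8.47 units. Among 22757 features that included probe sets with several symbols, its difference was at least 1.68 ± 0.31 in Cyp26a1-/- cells (limma adjusted p = 0.00186) and was not called in wild type (0.69 ± 0.31, limma adjusted p = 0.150). Neither gene can be credited with that signal. Hoxb5os, a non-coding gene whose RefSeq record starts between those of Hoxb7 and Hoxb6, read 158 and 203 units in Cyp26a1-/- cells at 72 h and 130 and 802 units in wild type, rising by at least 1.84 ± 0.48 in Cyp26a1-/- cells (limma adjusted p = 0.0122) and at least 2.69 ± 0.48 in wild type (limma adjusted p = 0.000821).

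The 5' genes showed the smallest differences as computed with the floor. Hoxb9, which takes part in shaping the rib cage, read 97.0 and 135 units in Cyp26a1-/- cells at 72 h, against 23.4, 47.1 and 58.6 units in controls, and 106 and 151 units in wild type, against 7.08, 39.1 and 75.0 units. It rose by 1.12 ± 0.28 in Cyp26a1-/- cells (limma adjusted p = 0.00898) and 1.14 ± 0.28 in wild type (limma adjusted p = 0.00738), and with the floor at 100 units neither was called (limma adjusted p = 0.279 in Cyp26a1-/- and 0.0805 in wild-type cells). Leaving out replicate 2 of the 72 h arrays also ended the call in the genotype it came from, at 0.88 in Cyp26a1-/- cells (limma adjusted p = 0.118) and 0.88 in wild type (limma adjusted p = 0.130). Such fits leave 1 array in a group, which is taken to vary like the other groups.

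Hoxb13, the 5'-most gene, acts in the tail and the prostate. It read 116 and 78.5 units in Cyp26a1-/- cells at 72 h, against 11.0, 25.8 and 49.5 units in controls, and 151 and 137 units in wild type, against 97.9, 4.77 and 30.8 units. It was called higher in wild type (1.20 ± 0.34, limma adjusted p = 0.0185) and not in Cyp26a1-/- cells (at least 0.93 ± 0.34, limma adjusted p = 0.0640). The wild-type call was lost without either 72 h replicate, at 1.13 without replicate 1 (limma adjusted p = 0.122) and 1.27 without replicate 2 (limma adjusted p = 0.0853), and also without control replicate 2 or 3, at 1.04 each (limma adjusted p = 0.0617 and 0.0586).

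**Figure D2:**
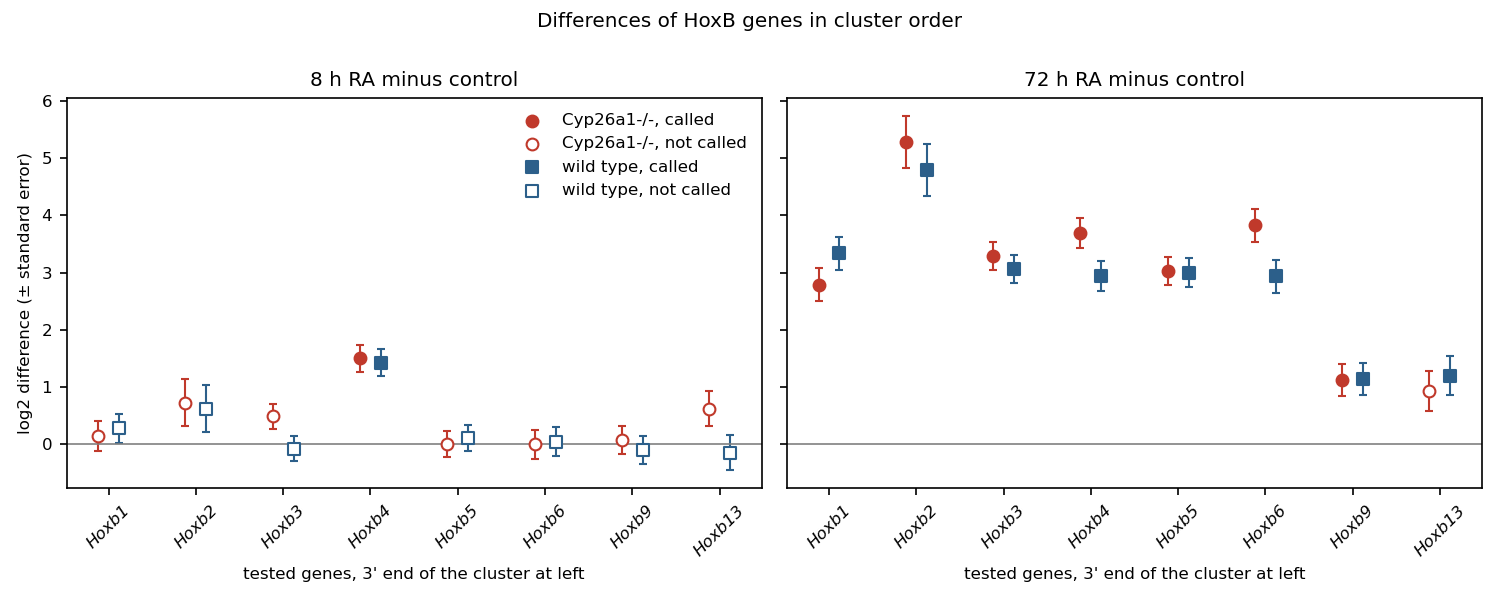
Log2 difference from controls (± standard error) of the 8 tested HoxB genes in cluster order, after 8 h (left) and 72 h (right) of RA, in Cyp26a1-/- and wild-type cells. Filled symbols passed the test; at 8 h the filled symbols stand at Hoxb4 alone, and at 72 h Hoxb9 and Hoxb13 lie lowest in both genotypes.

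The order along the cluster was compared with the size of the differences as a description. At 8 h the called gene was the fourth from the 3' end, and the 3 genes nearer that end were not called. The number of members with every array at 100 units or more was 0 in controls, 1 at 8 h in each genotype (Hoxb4), and, at 72 h, 6 in Cyp26a1-/- cells (Hoxb1 to Hoxb6) and 8 in wild type, which added Hoxb9 and Hoxb13. Spearman's rho of position, counted from the 3' end, with the 72 h difference was -0.48 in Cyp26a1-/- cells and -0.93 in wild type, over 8 genes measured on the same arrays. With the 8 h difference rho was -0.29 in Cyp26a1-/- cells and -0.71 in wild type, where Hoxb4 alone was called. The 8 h ranks too are those of floored values, with RA arrays as well as controls under the floor. Hoxb5 in wild type read 42.5, 30.2 and 63.5 units at 8 h with RA, against at most 9.34 units in controls, and was ranked at 0.11. In wild type at 72 h, Hoxb3 to Hoxb6 lay between 2.94 and 3.06, closer together than their standard errors of 0.25 to 0.28. Because 6 of the 8 differences in Cyp26a1-/- cells and 4 of the 8 in wild type at 72 h were lower bounds, and of the rest only Hoxb4 in Cyp26a1-/- cells had no control array under the floor, the ranks are those of floored values. No test of one gene's difference against another's was run.

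Cyp26a1-/- and wild-type cells were then compared for each member under the same treatment. No member was called in controls, at 8 h or at 72 h, where 4.64%, 4.61% and 4.07% of tested genes were called in either direction. At 72 h Hoxb4 came nearest, with 813 and 797 units in Cyp26a1-/- cells against 408 and 416 units in wild type. That is a difference of 0.97 (95% interval 0.37 to 1.57 before adjustment, limma adjusted p = 0.0712), or 1.96-fold. The interval leaves out 0, while the adjusted p over all genes misses the threshold. It was called with the floor at 100 units (limma adjusted p = 0.0204), after quantile normalization (1.10, limma adjusted p = 0.0459), with the replicate number as a block (limma adjusted p = 0.0211) and with the 72 h arrays alone (limma adjusted p = 0.0135). It was not called when tested among 20246 probe sets (limma adjusted p = 0.104). Nor was it called without any 1 of the 4 arrays at 72 h, where the difference was 0.95 to 0.98. The dimmer Hoxb4 probe set read 299 and 328 units in Cyp26a1-/- cells against 218 and 229.5 units in wild type, a difference of 0.49 (limma adjusted p = 0.544).

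Hoxb6 differed by 0.89 (interval 0.23 to 1.55, limma adjusted p = 0.143). Fits without 1 of the 72 h arrays leave 1 array in a group, which is taken to vary like the other groups. In those fits the Hoxb6 difference ran from 0.25, without wild-type replicate 1, to 1.53, without wild-type replicate 2. Hoxb1 ran the other way, at -0.55 (interval -1.23 to 0.12, limma adjusted p = 0.438), with both Cyp26a1-/- arrays under both wild-type arrays. Hoxb13 did so too, at -0.59 (interval -1.39 to 0.21, limma adjusted p = 0.502), and with the floor at 100 units it was called lower in Cyp26a1-/- cells (-0.42, limma adjusted p = 0.00886). Of the 8 genes, 3 lay higher without overlap in Cyp26a1-/- cells at 72 h (Hoxb2, Hoxb4 and Hoxb6) and 2 lower (Hoxb1 and Hoxb13), where 22.6% of all tested genes lay higher and 25.8% lower without overlap. Such a pattern is thus common with 2 arrays a group. The intervals of Hoxb3, from -0.44 to 0.71, Hoxb5, from -0.55 to 0.62, and Hoxb9, from -0.79 to 0.51, contain 0 and leave room for differences of that size.

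Whether a member differed from controls by a different amount in the genotypes was tested by the interaction, which at 72 h covers RA and time together. At 8 h 0 genes of the whole table were called, with 211 at an unadjusted p under 0.05 by limma, and the Hoxb4 interaction was 0.07 ± 0.33. At 72 h 39 genes were called, or 0.342% of those tested, and none was a member. The Hoxb4 interaction was 0.75 ± 0.36 (limma adjusted p = 0.925) and was not called. For Hoxb4, 2 of the 3 wild-type control arrays lay under the floor, and no Cyp26a1-/- control array did. Raising those arrays to the floor shrinks the wild-type differences alone, and so raises the Hoxb4 interaction at 8 h and at 72 h. The larger 72 h difference computed for Hoxb4 in Cyp26a1-/- cells is thus not shown to be a larger rise. For Hoxb1, Hoxb2, Hoxb5 and Hoxb6 both control groups lay wholly at the floor. At 8 h and at 72 h their interaction thus equals the difference between genotypes at that time (0.89 for Hoxb6 at 72 h) and does not measure a difference in response.

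**Figure D3:**
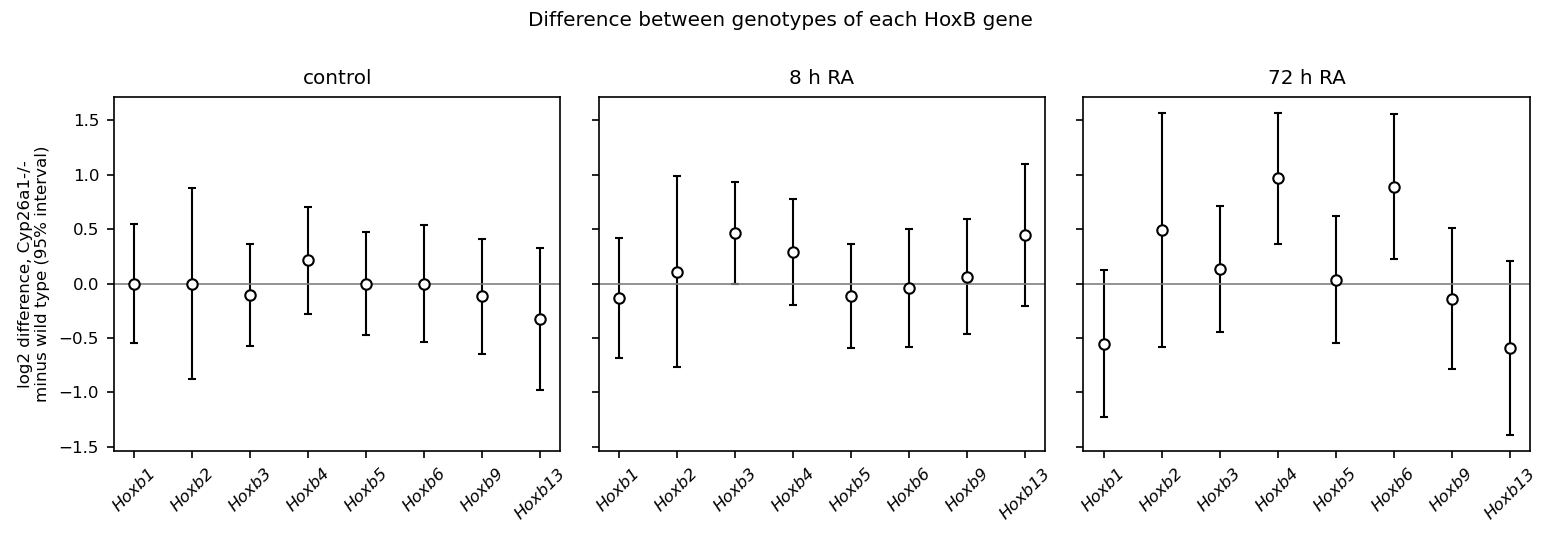
Log2 difference, Cyp26a1-/- minus wild type, of the 8 tested HoxB genes in controls, at 8 h and at 72 h of RA, with 95% intervals before adjustment. The intervals of Hoxb4 and Hoxb6 at 72 h lie above 0, and no gene was called after adjustment.

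The genes on either side of the cluster were set beside it. Of 11 flanking genes with a probe set, 9 were tested, and 2 rose at 72 h in both genotypes, Calcoco2 and Ttll6, which lie next to each other beyond the Hoxb13 end. Calcoco2, an autophagy receptor gene, already rose at 8 h, to 1436, 1114 and 1275 units in Cyp26a1-/- cells, against 539, 574 and 639 units in controls (1.12 ± 0.21, limma adjusted p = 0.0163), a call lost without replicate 1 of both control groups (1.07, limma adjusted p = 0.0807). In wild type it rose at 8 h to 2296, 3430.1 and 2191 units, against 1066, 1329.5 and 834 units (1.29 ± 0.21, limma adjusted p = 0.00615). Its 72 h rise was 3.10 ± 0.23 in Cyp26a1-/- (limma adjusted p = 3.59e-07) and 2.72 ± 0.23 in wild-type cells (limma adjusted p = 1.12e-06). At 8 h Hoxb4 and Calcoco2 were thus the called genes among those tested in and beside the cluster, with uncalled genes between them.

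Ttll6, a tubulin-modifying enzyme gene, rose at 72 h by 1.26 ± 0.32 in Cyp26a1-/- cells (limma adjusted p = 0.00991) and 1.76 ± 0.32 in wild type (limma adjusted p = 0.000937). Beyond Calcoco2, the differences of Atp5g1, Ube2z, Snf8 and Igf2bp1 at 72 h lay between -0.20 and 0.23 in Cyp26a1-/- cells and between -0.25 and 0.29 in wild type, and none was called. Beyond Hoxb1, Snx11, Cbx1 and Nfe2l1 lay between -0.32 and 0.25 in Cyp26a1-/- cells and between -0.42 and 0.25 in wild type, and none was called. Skap1, an adaptor gene of T cell signalling and the protein-coding gene next to Hoxb1, was too dim to test. It read 42.9 and 54.0 units in Cyp26a1-/- cells at 72 h, against 24.1, 22.2 and 23.8 units in controls, and 62.6 and 82.4 units in wild type, against 30.5, 31.6 and 4.54 units. In the readings before the floor these groups did not overlap in either genotype. With the floor they overlapped in Cyp26a1-/- cells and did not in wild type. The Cyp26a1-/- array of 42.9 units lay under the floor, as all controls of both genotypes did. Because Skap1 was not tested, where the 72 h differences end on the Hoxb1 side is not shown. The median 72 h difference of the 9 flanking genes was 0.06 in Cyp26a1-/- and 0.03 in wild-type cells. Between genotypes, Calcoco2 was called lower in Cyp26a1-/- than in wild-type controls (-0.86, limma adjusted p = 0.0261). That call was lost without replicate 1 of both control groups (-0.80, limma adjusted p = 0.183). At 8 h 1 of the 9 was called lower in Cyp26a1-/- cells, and at 72 h none differed.

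**Figure D4:**
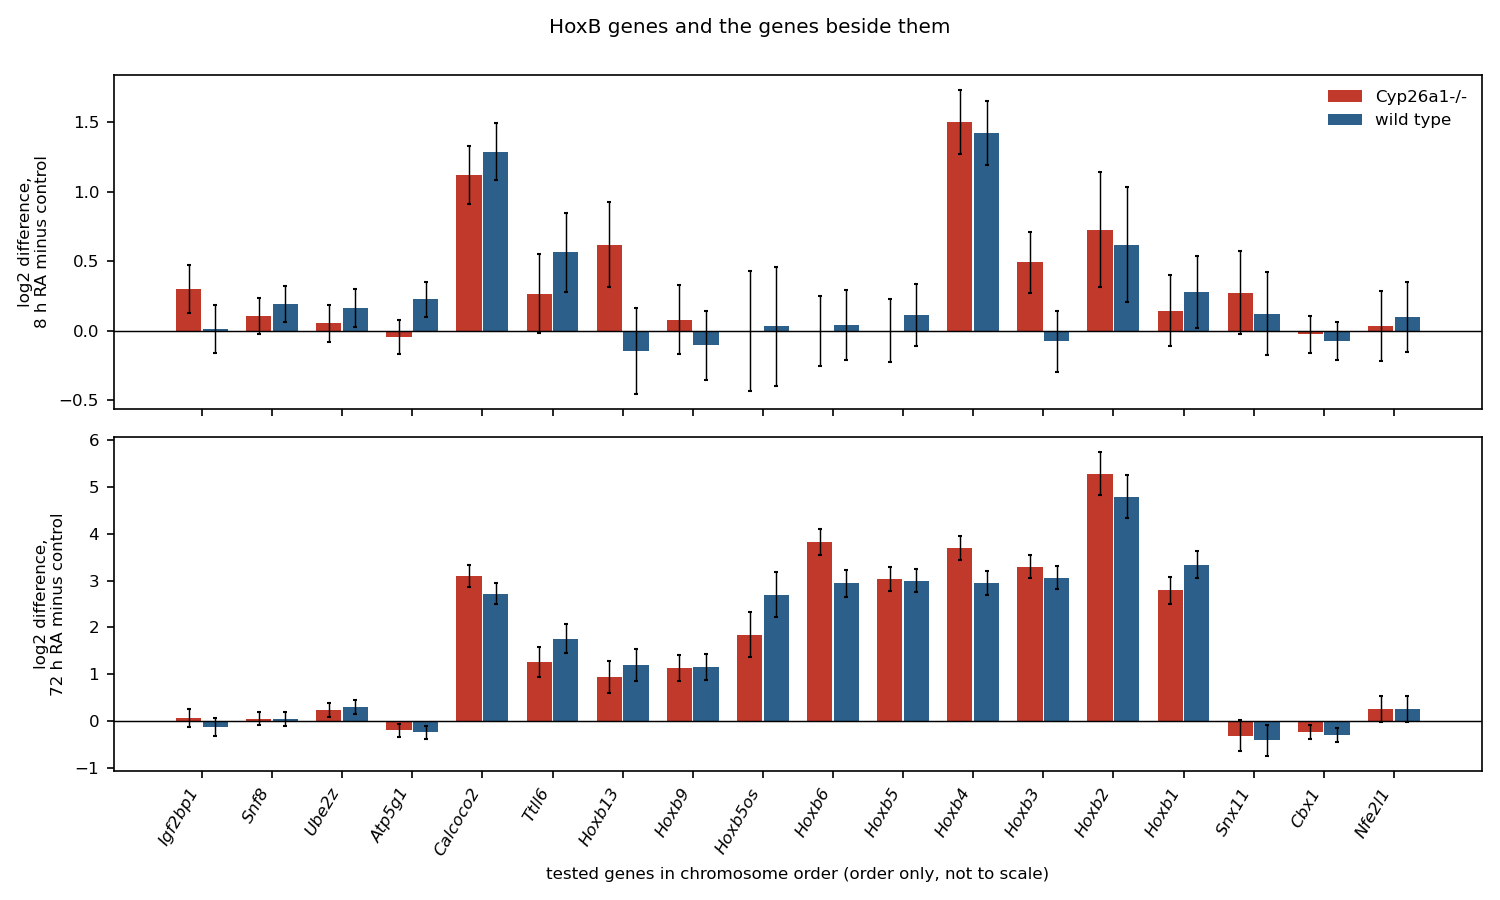
Log2 difference from controls (± standard error) at 8 h (top) and 72 h (bottom) of RA for the tested HoxB genes, Hoxb5os and their neighbours, in chromosome order with the 5' end of the cluster at left. At 72 h the bars are tall at Calcoco2 and from Hoxb5os to Hoxb1, and lower at Ttll6, Hoxb13 and Hoxb9 between them. Skap1, next to Hoxb1, was too dim to test and is not drawn. Bars at Hoxb1, Hoxb2, Hoxb5, Hoxb6 and Hoxb5os are lower bounds at 72 h in both genotypes.

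Among the other Hox genes, 24 of 29 had a probe set and 11 were tested. At 8 h none was called in either genotype. At 72 h 7 rose in each genotype, and 6 of these were the same genes, Hoxa3, Hoxa4, Hoxa7, Hoxa10, Hoxc4 and Hoxc5, with Hoxa11 called in Cyp26a1-/- and Hoxa5 in wild-type cells. Without replicate 1 of both control groups the call of Hoxc5 in Cyp26a1-/- cells was lost (0.74, limma adjusted p = 0.0566). Hoxa4, which carries the same number as Hoxb4 in its own cluster, rose by at least 3.56 ± 0.26 in Cyp26a1-/- (limma adjusted p = 3.23e-07) and at least 2.81 ± 0.26 in wild-type cells (limma adjusted p = 2.05e-06). At 8 h it differed by 0.12 in Cyp26a1-/- cells (limma adjusted p = 0.974) and 0.00 in wild type (limma adjusted p = 1). Of the 11, Hoxc5 alone differed between genotypes at 72 h, lower in Cyp26a1-/- cells by 1.17 on the log2 scale (-1.17 ± 0.23, limma adjusted p = 0.00825). The median 72 h difference of the 11 was 1.26 in Cyp26a1-/- and 1.92 in wild-type cells.

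**Figure D5:**
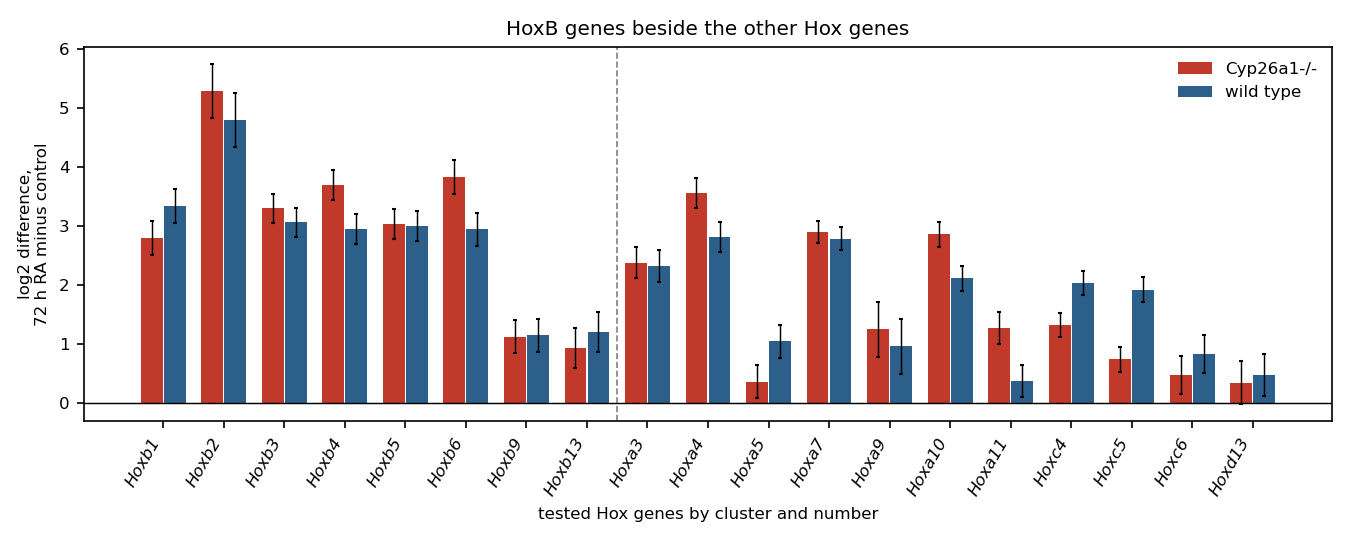
Log2 difference from controls (± standard error) at 72 h of RA of the tested HoxB genes (left of the dashed line) and of the tested genes of the other Hox clusters, in Cyp26a1-/- and wild-type cells. Hoxa3, Hoxa4, Hoxa7 and Hoxa10 stand above 2 in both genotypes, as Hoxb1 to Hoxb6 do.

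Hox proteins bind DNA with partners of the Pbx, Meis and Pknox families. Of 8 tested partner genes none was called at 8 h and 4 rose at 72 h in each genotype. Meis1 rose by 2.51 ± 0.27 in Cyp26a1-/- (limma adjusted p = 1.09e-05) and 3.69 ± 0.27 in wild-type cells (limma adjusted p = 2.36e-07), and Meis2 by 3.11 ± 0.35 in Cyp26a1-/- (limma adjusted p = 1.48e-05) and 4.08 ± 0.35 in wild-type cells (limma adjusted p = 1.12e-06). Pbx3 and Pknox2 were the others. At 72 h Meis1 was lower in Cyp26a1-/- than in wild-type cells (-1.53 ± 0.30, limma adjusted p = 0.00715), the only partner gene called between genotypes there.

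Of 9 tested genes known to act upstream of HoxB, 2 rose at both times in both genotypes, the homeobox gene Cdx1 and the RA receptor gene Rarb. Cdx1 rose at 8 h by 3.75 ± 0.40 in Cyp26a1-/- (limma adjusted p = 0.000240) and 3.17 ± 0.40 in wild-type cells (limma adjusted p = 0.000942). Rarb rose at 8 h by 1.01 ± 0.19 in Cyp26a1-/- (limma adjusted p = 0.0177) and 0.97 ± 0.19 in wild-type cells (limma adjusted p = 0.0197), and both of these calls were lost without replicate 1 of both control groups (limma adjusted p = 0.0696 in Cyp26a1-/- and 0.0766 in wild-type cells). Of 11 tested RA target genes, which include these 2 and Cyp26a1, 6 rose at 8 h and 11 at 72 h in each genotype. Cyp26a1, the targeted gene, was among the 6 in both genotypes. Between genotypes at 8 h, 2 of the 11 were called lower in Cyp26a1-/- cells. Stra8 rose at 8 h by 3.51 ± 0.27 in Cyp26a1-/- (limma adjusted p = 4.10e-06) and 4.22 ± 0.27 in wild-type cells (limma adjusted p = 6.80e-07). Of 16 Polycomb and trithorax genes, which keep Hox clusters silent or active, none was called at 8 h. At 72 h 1 rose in each genotype, Bmi1, by 2.02 ± 0.21 in Cyp26a1-/- (limma adjusted p = 6.74e-06) and 1.67 ± 0.21 in wild-type cells (limma adjusted p = 3.66e-05), and Eed and Pcgf6 fell in wild type. Without replicate 1 of both control groups the Pcgf6 call was lost (limma adjusted p = 0.0580) and Eed was called lower in Cyp26a1-/- cells too (-0.45, limma adjusted p = 0.0160).

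The 72 h arrays also differed in markers of other cell types. Of 13 tested extraembryonic endoderm markers 12 rose at 72 h in each genotype. Between genotypes, 5 of the 13 were called lower in Cyp26a1-/- controls, 4 at 8 h and none at 72 h. Without replicate 1 of both control groups 2 were lower in controls. Gata6 was called in the 72 h interaction (2.63, limma adjusted p = 0.0473), a call lost without those arrays (2.83, limma adjusted p = 0.103). The summed signal of the 15 markers ran from 23922 to 24551 units in Cyp26a1-/- cells at 72 h, against 3032 to 5006 units in controls, and from 29131 to 31909.5 units in wild type, against 4565 to 11688 units. Afp lay under the floor on all arrays of both 72 h groups. Of 14 pluripotency genes 6 fell in each genotype and 1 rose in wild type. Of 5 tested neural markers Sox1 rose in Cyp26a1-/- cells, and Isl1 rose and Tubb3 fell in wild type. Without replicate 1 of both control groups 13 of the 13 extraembryonic endoderm markers rose in Cyp26a1-/- cells and 10 in wild type, 5 of the 14 pluripotency genes fell in Cyp26a1-/- cells and 6 in wild type, and Sox1 was called in wild type too (1.46, limma adjusted p = 0.0263). The summed signal of 10 fibroblast feeder markers was 385 and 393 units in Cyp26a1-/- cells at 72 h, against 643 to 749 units in controls, and 559 and 1627 units in wild type, against 618 to 915 units. The high array was wild-type replicate 2, on which 2 of the 10, Postn and Prrx1, lay under the floor and Col1a2 was brightest, at 432 units. Without it, which leaves 1 wild-type array at 72 h, the differences of Hoxb1 to Hoxb6 from controls in wild type were 2.30 to 4.60. Those of Hoxb9 and Hoxb13 without it are given with these genes above. The part of these markers in the HoxB differences was not tested. At 8 h Gata6 was the 1 extraembryonic endoderm marker called, in Cyp26a1-/- cells (1.74 ± 0.33, limma adjusted p = 0.0190), which was lost without replicate 1 of both control groups (limma adjusted p = 0.0567), and no pluripotency or neural marker was called in either genotype.

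The pattern over all 18 arrays was similar among members. Pearson's r of log2 signal ranged from 0.59 to 0.99 over the 28 pairs of tested members, with a median of 0.91. All pairs share the 4 bright 72 h arrays, and no test was made. The gene outside the cluster with the highest r was Mogat2 for Hoxb1 (0.99), Gfra1 for Hoxb2 (0.98), Msrb3 for Hoxb3 (0.98) and Hoxb5 (0.99), Aurkc for Hoxb4 (0.97), Hoxa10 for Hoxb6 (0.99), Myo7a for Hoxb9 (0.94) and Capn12 for Hoxb13 (0.89).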

How the data were processed

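The authors deposited 1 table of linear signal intensity, made with MAS5, Affymetrix's statistical algorithm, per the submitters' processing notes. The sources used here do not give its version or settings. On the file, all 18 arrays shared a trimmed mean of 500 units (2% cut at each end). The annotation gave 1 symbol to 34958 of 45101 probe sets, several to 932 and listed no gene for 9211. Of the first, 34754 matched RefSeq (GRCm38.p6) by Entrez number, used for names and gene order.

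Signals below a floor of 50 were raised to it before taking log2. The probe set with the highest mean stood for a gene, and genes with at least 2 arrays at 100 units or more were tested. limma 3.58.1 in R 4.3.3 (lmFit, eBayes with trend) fitted the 16 replicated arrays by group (10 residual degrees of freedom), with two-sided tests and Benjamini-Hochberg adjustment over 11388 genes. The fit was tested on simulated data. The number of arrays limits precision: the median standard error was 0.19 for 3 arrays against 3, 0.22 for 2 against 3 and 0.24 for 2 against 2. The 2 arrays without LIF entered no test.

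Members and gene lists were chosen with earlier results of these data known. The text names all 10 members, up to 4 called genes of a list with the smallest adjusted p (2 with the largest change where none was called), and the gene most like each member; Skap1, Snx11, Cbx1, Nfe2l1, Atp5g1, Ube2z, Snf8, Igf2bp1, Hoxa5, Hoxa11 and Afp were named after their values were seen. Same-numbered arrays deviated together from their group means (r of 0.03 to 0.50, median 0.26, over 36 pairs). The median r of arrays of different number was -0.14 over 70 pairs. Deviations from a group mean cancel within the group, so that lower median follows from the first and is no separate evidence. In each of the 4 comparisons with 3 pairs every r was above 0.1. Wild-type numbers 1 and 2 come from title prefixes, not from a number.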

Additional observations from a re-analysis of the deposited data

Results flagged for a closer look

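The probe set named for both Hoxb8 and Hoxb7, which entered no comparison by gene because it has 2 symbols, averaged 160.5 units in Cyp26a1-/- cells after 72 h of RA. Both arrays were above 100 units, and all Cyp26a1-/- control arrays were at or under 25.9 units. In wild-type cells at 72 h the arrays read 42.2 and 130.5 units, so only 1 of them was above 100 units. Its difference between Cyp26a1-/- and wild-type cells at 72 h was 0.99 ± 0.34 (limma adjusted p = 0.180) and was not called. Which of the 2 genes the signal comes from was not tested.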

How the results depend on the processing

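The 32 gene values called were recomputed under 427 alternatives: 400 stayed called in the same direction, 27 lost the call and 0 turned sign. Those lost calls belong to Hoxb4 at 8 h and to Hoxb9 and Hoxb13 at 72 h. The count of called members at 8 h was 1 in each genotype, and 0 with the floor at 100 units and 0 with the compared groups alone, where 1 member was left to test. For Cyp26a1-/- against wild type at 72 h the count of 0 became 2 with the floor at 100 units, 1 after quantile normalization, 1 with the replicate block (Hoxb4) and 1 with the compared groups alone, and leaving out 1 array gave 0 to 1. The replicate block changed no other count of members, but over all genes it raised the 8 h calls to 342, against 109, in Cyp26a1-/- cells and to 275, against 103, in wild type. The replicate block also gave 1069, 1114 and 1004 genes called between genotypes in controls, at 8 h and at 72 h, against 528, 525 and 463. Leaving out 1 array gave 6 to 7 members called at 72 h in Cyp26a1-/- cells and 6 to 8 in wild type. Of 834 alternatives for 56 uncalled values, 6 became called, and 50 changed sign while uncalled. In some fits of the compared groups alone no member was bright enough to test, so they have no value. The cause of these shifts was not tested. Of genes outside the cluster, Socs3 in wild type at 72 h was uncalled at 0.63 and became called lower at -0.53 without replicate 1 of both control groups (limma adjusted p = 0.0349), an alternative chosen for those genes after seeing the data. Signal near background limits the values: all control arrays lay under the floor for 6 of 8 tested members in Cyp26a1-/- and 4 of 8 in wild-type cells.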
